A study of Mus musculus with 2 samples.

Results

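Long autosomal stretches in which neither of 2 ATAC-seq libraries of mouse mesothelioma cells had a peak are described here. ATAC-seq marks open chromatin by the insertions of the Tn5 transposase. The peaks of both libraries were merged on chromosomes 1 to 19, and every gap of at least 500 kb between consecutive merged intervals of a chromosome was taken, which gave 557 stretches among 127076 gaps. The stretches were thus chosen by the positions of the deposited peaks in both libraries, so their lengths and the missing peaks inside them are a description and not a finding. The gene content, the nucleosome-free regions and the sequence of the promoters were not used to choose them. They are not independent of the rule, because a gene with a peak at an end can hardly lie wholly inside a stretch.

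The cells were AB22, an established mouse malignant mesothelioma line, infected at a multiplicity of 20 with pTRIPZ lentivirus. This vector expresses a hairpin RNA once doxycycline is given. The shCTRL group carried the control hairpin and the shHMGB1 group a hairpin against Hmgb1, the gene of a chromatin protein that bends DNA. Both groups were selected with 4 µg/mL puromycin and grown in tetracycline-free serum at 37 °C, in 5% oxygen as labelled. Doxycycline (1 µM) was then present for 7 to 10 days, and neither group has an irradiation dose in its labels. Whether the selected cells were a pool or a clone is not stated in the sources used here. Each group was 1 library, so nothing between the groups was tested, and every difference between them is a difference between these libraries.

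Of 12 mesothelial markers, Msln and Pdpn had a peak at an annotated gene end (within 1 kb of it) in both libraries, Wt1, Calb2 and Krt19 in shCTRL only, and Lrrn4 in shHMGB1 only. Upk3b, Gpm6a, Krt8 and Krt18 had none, and Muc16 and Upk1b lay inside the peak-free stretches. End peaks in 1 or both libraries were listed for 4 of 9 leukocyte, 3 of 7 epithelial, 3 of 5 endothelial and 7 of 9 fibroblast markers, against 62.0% of all autosomal coding genes, and no gene of these lists lay inside a stretch. Hmgb1 itself had end peaks in both libraries, which does not measure how far its RNA was lowered.

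Mammalian chromosomes alternate between gene-rich segments with many open promoters and enhancers and long gene-poor segments that are mostly compact. Large tandem families, such as the olfactory and vomeronasal receptors that detect odours and pheromones, are silent outside their sensory neurons. Genes of neuronal adhesion molecules are often very long and stand alone in gene-poor segments. CG dinucleotides are rare in the mouse genome except in CpG islands, which cover the promoters of most genes that all cells use and of many developmental genes.

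The promoters that follow show both kinds of start site met inside the stretches and an open one from just outside for comparison. Each is the 250 bases before the annotated start of the gene, 5′ to 3′ on the strand of the gene, from RefSeq on GRCm38.p6, with every CG dinucleotide in capitals. Olfr1015, an olfactory receptor gene of the stretch with the most coding genes, has 0 CG in these bases (chr2:85785224-85785473, plus strand). Ifna2, a type I interferon gene, has 1 (chr4:88683780-88684029, minus strand). Ugt2b1, which encodes an enzyme that conjugates steroids and drugs, has 1 (chr5:86926504-86926753, minus strand).
Olfr1015: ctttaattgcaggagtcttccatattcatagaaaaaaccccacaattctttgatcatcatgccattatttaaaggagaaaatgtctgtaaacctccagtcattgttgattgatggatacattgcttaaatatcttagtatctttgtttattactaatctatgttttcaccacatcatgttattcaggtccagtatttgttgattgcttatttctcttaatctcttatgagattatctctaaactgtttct
Ifna2: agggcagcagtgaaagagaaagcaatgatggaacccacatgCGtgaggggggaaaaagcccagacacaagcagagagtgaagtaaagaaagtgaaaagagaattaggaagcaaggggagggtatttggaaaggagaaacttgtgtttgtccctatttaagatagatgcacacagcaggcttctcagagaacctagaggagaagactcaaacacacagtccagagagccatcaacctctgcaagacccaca
Ugt2b1: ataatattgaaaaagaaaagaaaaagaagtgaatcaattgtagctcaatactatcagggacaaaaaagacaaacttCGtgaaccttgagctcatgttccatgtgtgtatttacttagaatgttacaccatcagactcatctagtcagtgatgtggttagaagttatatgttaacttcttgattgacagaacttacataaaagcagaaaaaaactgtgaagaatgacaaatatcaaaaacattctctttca

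Other genes inside the stretches start in CG-rich sequence. Cdkn2a, the tumour suppressor gene that encodes a cyclin-dependent kinase inhibitor and the p53 activator Arf, has 40 CG in the 250 bases before its outermost start (chr4:89294620-89294869, minus strand). Slitrk5, a synaptic adhesion gene, has 30 (chr14:111675777-111676026, plus strand), and Canx, the gene of the endoplasmic reticulum chaperone calnexin, has 24 (chr11:50325674-50325923, minus strand). Focad, the gene to the left of the Cdkn2a stretch that had a peak at its start in both libraries, has 15 (chr4:88094380-88094629, plus strand).
Cdkn2a: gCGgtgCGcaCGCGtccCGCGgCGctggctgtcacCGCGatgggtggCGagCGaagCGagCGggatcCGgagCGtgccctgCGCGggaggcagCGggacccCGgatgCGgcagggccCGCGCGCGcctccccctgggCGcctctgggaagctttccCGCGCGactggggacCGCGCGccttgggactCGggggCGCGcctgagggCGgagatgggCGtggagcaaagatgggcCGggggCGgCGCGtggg
Slitrk5: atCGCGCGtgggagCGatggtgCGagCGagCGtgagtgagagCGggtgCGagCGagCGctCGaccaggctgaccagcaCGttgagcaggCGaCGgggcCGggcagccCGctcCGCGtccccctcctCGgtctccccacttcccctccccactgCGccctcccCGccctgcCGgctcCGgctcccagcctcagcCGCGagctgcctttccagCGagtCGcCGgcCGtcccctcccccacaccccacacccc
Canx: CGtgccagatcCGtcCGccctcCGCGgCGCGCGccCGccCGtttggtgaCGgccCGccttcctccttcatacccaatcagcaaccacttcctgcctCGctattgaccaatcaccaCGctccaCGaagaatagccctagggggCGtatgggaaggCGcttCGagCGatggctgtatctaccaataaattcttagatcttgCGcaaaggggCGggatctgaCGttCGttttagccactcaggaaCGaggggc
Focad: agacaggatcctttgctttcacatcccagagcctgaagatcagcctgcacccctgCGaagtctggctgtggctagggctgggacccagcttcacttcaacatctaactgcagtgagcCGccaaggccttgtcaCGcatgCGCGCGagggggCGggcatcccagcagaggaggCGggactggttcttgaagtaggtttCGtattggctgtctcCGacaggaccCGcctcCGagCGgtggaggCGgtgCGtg

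The 557 stretches summed to 575.5 Mb, 24.0% of the 2398 Mb between the first and last merged interval of each autosome. The shortest was 500.8 kb, the quartiles were 616.9, 791.9 and 1189 kb, and the longest was 4.32 Mb. Of them, 190 were at least 1 Mb, 50 at least 2 Mb and 10 at least 3 Mb long, while the median of all gaps was 2.569 kb. The 3 stretches just above the limit were 500.829 kb on chromosome 3 with no coding gene, 502.944 kb on chromosome 13 with Gm47655 and 503.095 kb on chromosome 11 with Ccdc85a. The 3 gaps just below it were 499.628 kb on chromosome 7, 498.274 kb on chromosome 5 and 498.085 kb on chromosome 7.

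Stretches took unequal shares of the chromosomes. They made up 41.1% of the span of chromosome 14, 34.5% of chromosome 16 and 34.3% of chromosome 5. The share was 7.99% on chromosome 15, 11.6% on chromosome 19 and 11.7% on chromosome 11. The gene-dense chromosome 11 had 13.9 Mb of stretches with 17 coding genes, and chromosome 14 had 49.5 Mb with 151.

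**Figure D1:**
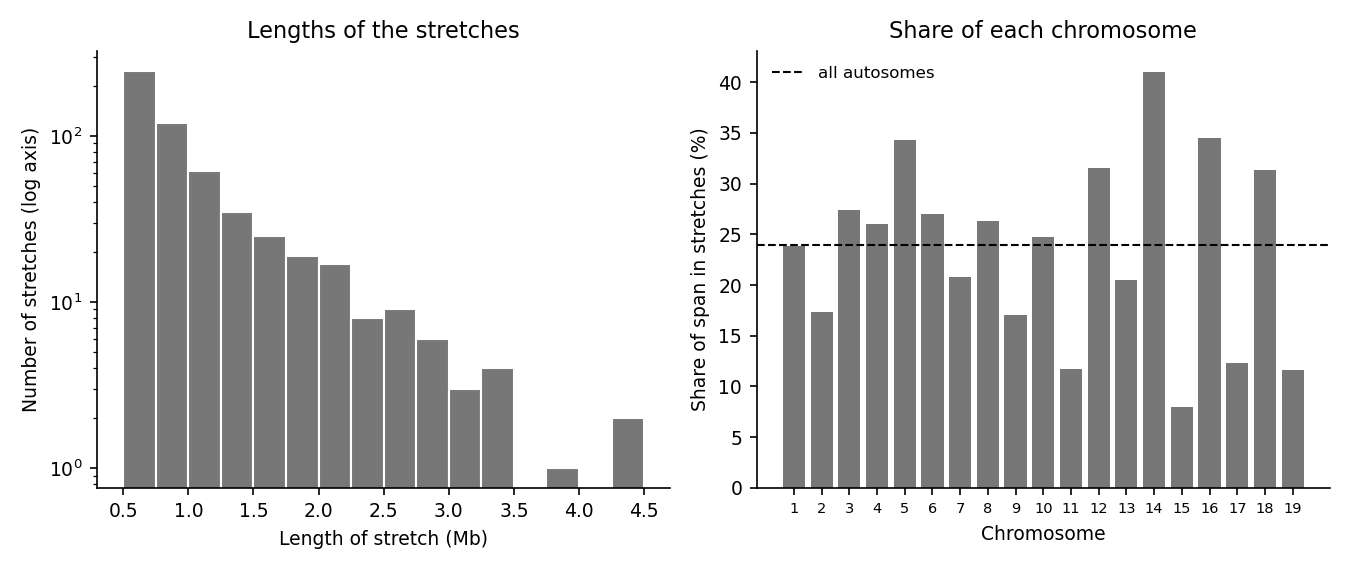
Left, the number of stretches (log axis) by length in Mb, in bins of 0.25 Mb; right, the share of each autosome's span in stretches, in percent, with the share over all autosomes as a dashed line at 24.0%. The bars fall from the shortest lengths to 2 stretches above 4 Mb, and chromosome 14 has the highest share (41.1%) and chromosome 15 the lowest (7.99%).

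Of 20665 autosomal coding genes, 1613 lay wholly inside a stretch, which is 7.81% and the background against which each gene family is set. Genes that a stretch touched by at least 1 bp numbered 1902 (9.2%). The stretches held 2.80 coding genes per Mb against 10.5 per Mb in the rest of the span, and coding gene bodies covered 22.4% of their length against 46.8%. The genes were unevenly placed. No coding gene lay wholly inside 299 stretches (53.7%), and 150 were not touched by any. At the other end, 53 stretches with at least 10 genes held 1152 genes, 71.4% of those inside.

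Receptors for odours and pheromones formed the largest block. Of 1104 olfactory receptor genes, 455 lay inside, 41.2% (exact 95% interval 38.3 to 44.2), in 18 stretches. Of 230 vomeronasal type 1 receptor genes 126 lay inside (54.8%, 48.1 to 61.3), and of 122 of type 2 it was 47 (38.5%, 29.9 to 47.8). Trace amine, taste and formyl peptide receptors had 7 of 60 inside (11.7%, 4.82 to 22.6), close to the background. These 4 lists together made up 39.4% of the coding genes inside and 7.34% of all autosomal coding genes. The intervals treat genes as independent draws, and neighbours in 1 cluster are not.

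The olfactory receptors lay in dense runs. The stretch chr2:85726034-87278706 (1.55 Mb) held 78 coding genes, from Olfr1012 to Olfr1116, and all were olfactory receptors. It was bordered by peaks of shHMGB1 alone, with pileups of 8 and 10 fragments. The pileup is the number of fragments over the summit, and the lowest listed was 10 in shCTRL and 7 in shHMGB1. The next stretch on chromosome 2, chr2:87305184-88572654, held 55 more receptors among 57 coding genes. On chromosome 9, chr9:38954967-40094826 held 44 among 45. The largest vomeronasal run was chr13:22051649-23285319, with 35 type 1 receptors among 37 coding genes, between border peaks of 89 and 93 fragments on the left and 26 and 15 on the right (shCTRL first, here and below). Both borders of that run had a peak in each library, whereas the large olfactory run had no shCTRL peak at either border.

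**Figure D2:**
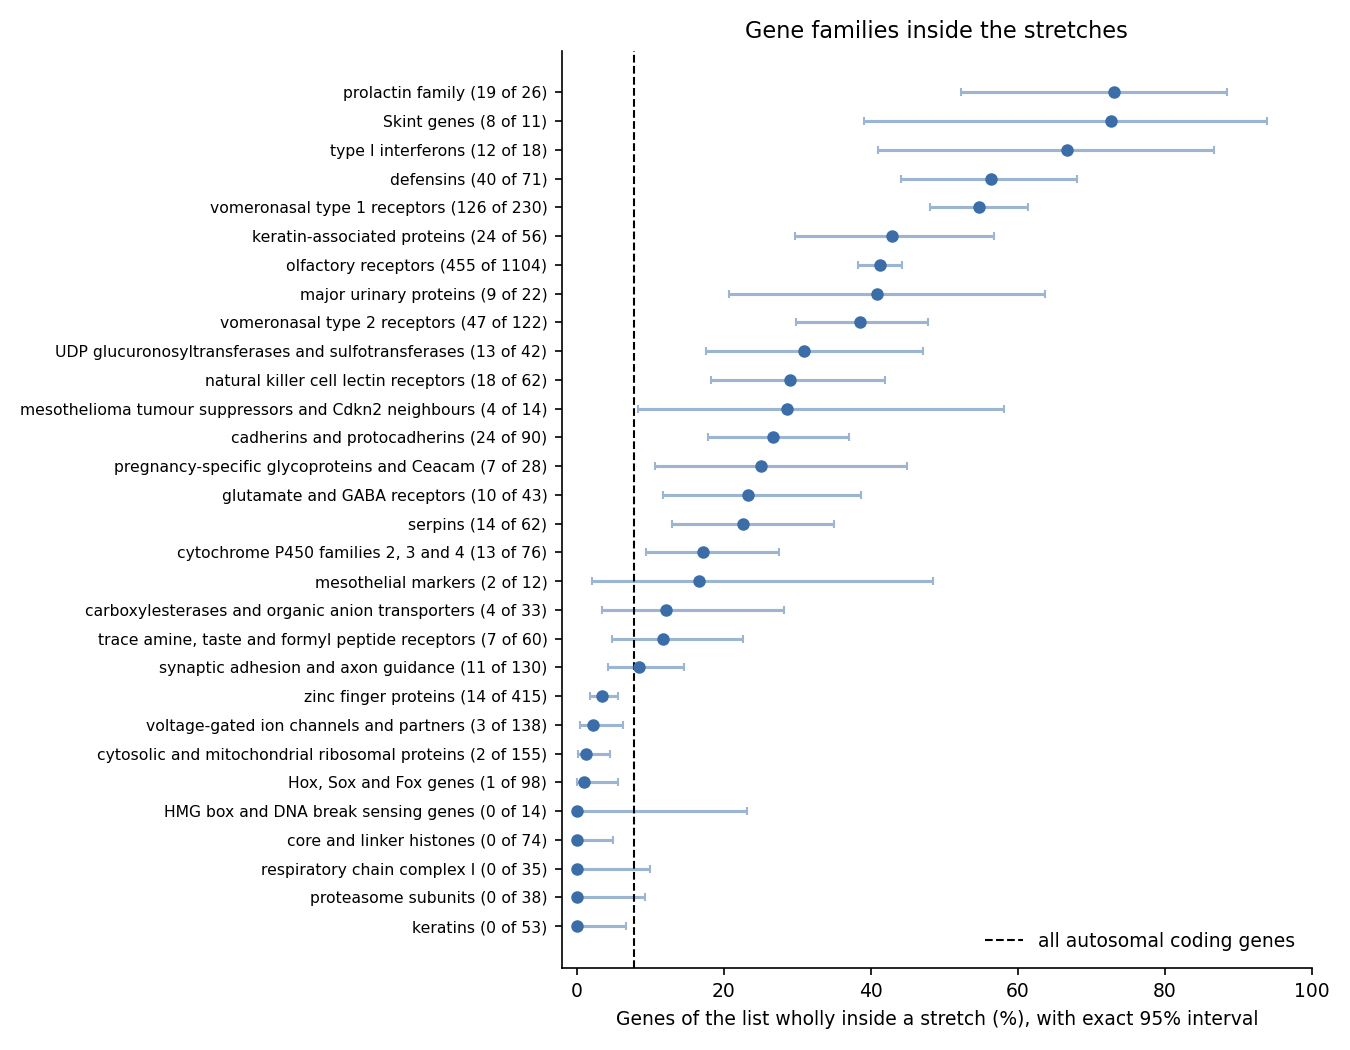
Percentage of the genes of each list (rows, with the number inside of the number on the autosomes) that lay wholly inside a stretch, as points with exact 95% intervals; the dashed line is the 7.81% of all autosomal coding genes. Prolactin, Skint, type I interferon, defensin and chemosensory genes lie to the right of the line, and histone, proteasome and respiratory chain genes are at 0.

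Secreted and immune families in tandem clusters were also inside in high proportion. Of 26 genes of the prolactin family, hormones made by the pituitary and placenta, 19 lay inside (73.1%, 52.2 to 88.4), 14 of them in chr13:27149254-27706430. Of 71 defensins, antimicrobial peptides of gut and other epithelia, 40 were inside (56.3%, 44.0 to 68.1), and 38 of these stood in the single stretch chr8:21019622-21992304. Type I interferon genes, which encode antiviral cytokines, had 12 of 18 inside (66.7%, 41 to 86.7), all in the stretch of Cdkn2a. The list goes by gene symbol, so any interferon genes named Gm are not counted. Natural killer cell lectin receptors had 18 of 62 inside (29.0%, 18.2 to 41.9), and this was a run from Klrd1 and Klrk1 onwards on chromosome 6. Of 11 Skint genes, whose founding member acts in the selection of skin T cells, 8 were inside.

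Genes of skin, liver and placenta gave a mixed picture. Keratin-associated proteins of the hair shaft had 24 of 56 inside (42.9%, 29.7 to 56.8), while keratins, the intermediate filament proteins of epithelia, had 0 of 53 (upper limit 6.72%). The 0 depended on the length limit, since at 400 kb 26.4% of keratins were inside, against 8.95% of all coding genes. An end peak in 1 or both libraries was listed for 22.6% of keratins, against 62.0% of all autosomal coding genes. Major urinary proteins, which carry pheromones, had 9 of 22 inside. UDP glucuronosyltransferases and sulfotransferases had 13 of 42 inside (31.0%), all in chr5:86838456-88519361, a stretch of 1.68 Mb with 29 coding genes. Cytochrome P450 genes of families 2, 3 and 4 had 13 of 76 (17.1%), serpins, which are protease inhibitors, 14 of 62 (22.6%), pregnancy-specific glycoproteins and Ceacam genes 7 of 28, and carboxylesterases and organic anion transporters 4 of 33 (12.1%, 3.40 to 28.2). With a minimum length of 750 kb in place of 500 kb, the prolactin, serpin and carboxylesterase lists all had 0 inside, and at 1000 kb so did the defensins, the Skint genes and the cytochrome P450 list.

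Families that most cells use had few or no members inside. The rule largely fixed this, since a gene with an end peak can hardly lie wholly inside a stretch. Such peaks, in 1 or both libraries, were listed for 87.8% of histones, 92.1% of proteasome subunits and 94.2% of ribosomal proteins. For respiratory chain complex I and the HMG box and DNA break list it was 100%. Core and linker histones had 0 of 74 inside (exact upper limit 4.86%). Proteasome subunits had 0 of 38 (9.25%), respiratory chain complex I 0 of 35 (10.0%) and HMG box and DNA break sensing genes 0 of 14 (23.2%), and these upper limits lie above the 7.81% of all coding genes. Ribosomal proteins had 2 of 155 inside, Rpl10l and Mrpl50. Zinc finger protein genes, many of which encode repressors of transposons, had 14 of 415 inside (3.37%, 1.86 to 5.60), below the background, and 78.8% of that list had an end peak in 1 or both libraries, against 62.0% of all autosomal coding genes. Hox, Sox and Fox genes, which encode developmental transcription factors, had 1 of 98 inside, Foxp2. End peaks were listed for 2.63% of olfactory and 0.870% of vomeronasal type 1 receptor genes, inside or not.

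The 12 longest stretches held 19 coding genes in all, and 9 of these were on the lists of adhesion, receptor and channel genes. Over all stretches, 48 of the 1613 coding genes inside were on these lists. The lists hold 90 cadherins and protocadherins, 130 synaptic adhesion and axon guidance genes, 43 glutamate and GABA receptors and 138 voltage-gated channels and partners. All autosomal coding genes numbered 20665. The longest stretch, chr14:110467675-114791597, held 2 coding genes, Slitrk6 and Slitrk5, both of a family of synaptic adhesion proteins, between a left border peak of 9 fragments in shHMGB1 alone and a right border peak of 11 and 10. The stretch of 4.30 Mb on chromosome 2 held Lrp1b, a large endocytic receptor, with border peaks of 73 and 45 on the left and 15 and 13 on the right. The stretch of 3.78 Mb on chromosome 12 held Lrfn5, another synaptic adhesion gene, between 26 in shCTRL alone and 15 and 12. Protocadherin genes, whose products mediate adhesion between neurons, were alone in 2 further ones, Pcdh7 in 3.45 Mb on chromosome 5 and Pcdh17 in 3.44 Mb on chromosome 14.

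The other stretches among the 12 longest held few coding genes or none. Gm40892 was alone in 3.47 Mb on chromosome 12, and Robo1, an axon guidance receptor, in 2.95 Mb on chromosome 16. Grm3, a glutamate receptor gene, shared 3.27 Mb on chromosome 5 with Elapor2 and Speer1 among 6 coding genes, and the potassium channel gene Kcnd2 shared 3.10 Mb on chromosome 6 with Ankrd7 and Tspan12. Speer2 was alone in 3.17 Mb on chromosome 16. The stretches of 3.17 Mb on chromosome 6 and 2.95 Mb on chromosome 8 held no coding gene. Border peaks of these 12 ranged from 7 fragments in shHMGB1 alone to 100 and 95 in both libraries.

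As whole lists, these genes ranged from above to below the 7.81% of all autosomal coding genes that lay inside. Cadherins and protocadherins had 24 of 90 inside (26.7%, 17.9 to 37.0), but 17 of the 24 were the Pcdha genes and the first Pcdhb genes in a single 506.0 kb stretch on chromosome 18. Glutamate and GABA receptors had 10 of 43 inside (23.3%, 11.8 to 38.6), and 4 of the 10 shared a stretch. Synaptic adhesion and axon guidance genes had 11 of 130 wholly inside (8.46%, 4.30 to 14.6), though a stretch touched 49 of them (37.7%). Voltage-gated channels and their partners had 3 of 138 inside (2.17%), among them Kcnj3 and Kcnd2. No neuronal marker of the list of 6 lay inside.

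In 27 cases a whole stretch lay within the body of a single coding gene. The 10 longest of these genes included Ptprd, Cntnap2, Lsamp, Nrxn3, Fhit, Pcdh15, Magi2, Gpc5 and Tenm3. Nrxn3, which encodes the presynaptic adhesion protein neurexin, spans 1.61 Mb, and the stretch inside it took 85.0% of that. Fhit, a gene at a known fragile site, spans 1.61 Mb with 82.7% in the stretch. Ptprd, a receptor phosphatase gene of 2.27 Mb with 52.1% in its stretch, was the only one of the 10 with an end peak, and it had one in both libraries. In all, 289 coding genes were partly inside a stretch, and 129 of them (44.6%) had an end peak in 1 or both libraries, a share that the rule lowers because an end within a stretch can have none. For the 223 whose start was known from the promoter table, the start lay outside the stretch in 128 and in the stretch in 95.

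The stretch of Cdkn2a was chosen for a closer view because a single list had 4 of its 14 genes inside, all here. That list was of mesothelioma tumour suppressors and neighbours of Cdkn2, so their falling together was in part fixed by the list. The stretch ran over 2.36 Mb, chr4:88641230-90996964, with 32 coding genes. It held 12 type I interferon genes with Klhl9 (a ubiquitin ligase adaptor) and genes named Gm among them, then, from left to right, Mtap (an enzyme of methionine salvage), Cdkn2a, Cdkn2b, Dmrta1 and Zfp352. The gene of the microRNA miR-31 lies in the same stretch. The left border peak had 74 fragments in shCTRL and 58 in shHMGB1, and the right one was listed in shHMGB1 alone with 8.

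Of the 23 merged intervals in the flanks drawn around the Cdkn2a stretch, borders included, 15 had a peak in each library. The start of Focad, 547 kb to the left of the border, had 157 and 134 fragments, and an interval within Focad had 130 and 133. To the right, an interval in Elavl2, a neuronal RNA-binding protein gene, had 221 and 250. The other 10 tumour suppressors of the list, among them Nf2, Bap1, Trp53, Lats1 and Lats2, each had an end peak in both libraries, against 54.3% of all autosomal coding genes. Within the stretch, Cdkn2a, Cdkn2b and Klhl9 have at least 15 CG in the 300-base promoter window (45, 18 and 22). A further 8 genes named Gm reach 15 there, and their promoters share runs of 50 bases with another. The peak lists give no coverage between peaks, so low insertion and missing coverage cannot be told apart in this stretch or any other.

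**Figure D3:**
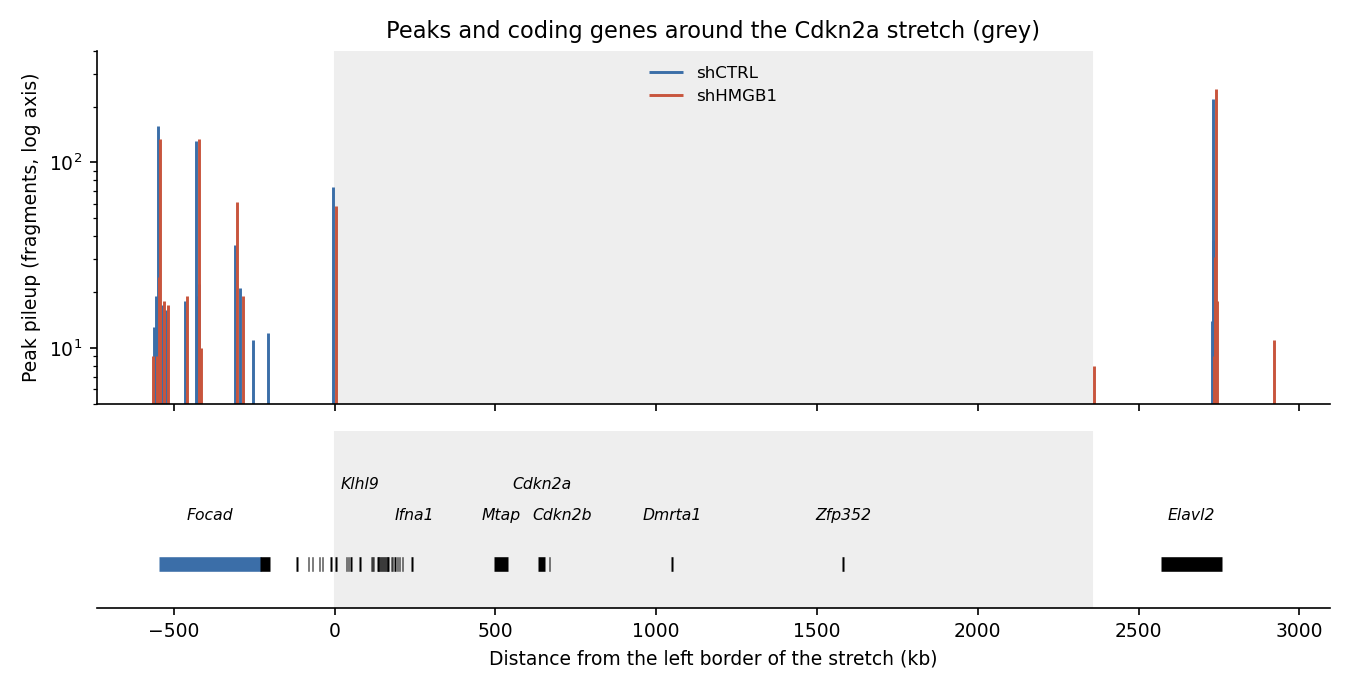
Top, pileup in fragments (log axis) of every listed peak of shCTRL (blue) and shHMGB1 (red) around the Cdkn2a stretch (grey), by distance in kb from its left border; bottom, coding genes, blue where an end peak was listed in 1 or both libraries and black where none was. The lines of each library are drawn slightly to 1 side of the peak centre; between the border peaks the grey area holds none, and the peaks at Focad (157 and 134) and in Elavl2 (221 and 250) stand on either side.

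Promoters rich in CG were the exception inside the stretches. A window of 300 bases, from 250 before to 50 after the start, was counted for CG, a pair that reads the same on both strands. Chromosome 18 was left out of these counts. On the other autosomes 1340 of 1561 coding genes inside matched the table, and 16457 of all 20154. The median was 2 CG inside and 14 over all, and at most 5 CG were found in 84.4% of the promoters inside (82.3 to 86.3) and in 31.5% of all promoters (30.8 to 32.2). The rule leaves hardly any gene with an end peak inside, whereas all promoters include many. Of genes not inside and without an end peak in either library, 58.5% had at most 5 CG (57.1 to 59.9). Chemosensory receptors inside had at most 5 in 99.5% and those not inside in 97.5%. Without them, the share inside was 73.8% (70.6 to 76.9).

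The adhesion, receptor and channel lists had 48 genes inside, of which the 17 on chromosome 18 were left out here. Of the other 31, 25 matched, and their median was 18 CG. At most 5 CG were found in 3 of the 25 and at least 15 in 15. Genes not inside a stretch and without an end peak in either library had a median of 4, and those with an end peak in both had a median of 21. Of the members of these lists that were not inside, 229 (75.3%) matched, below the 80% required for a comparison, and their median was 13 CG. The part of list and of position in the 18 thus cannot be told apart.

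**Figure D4:**
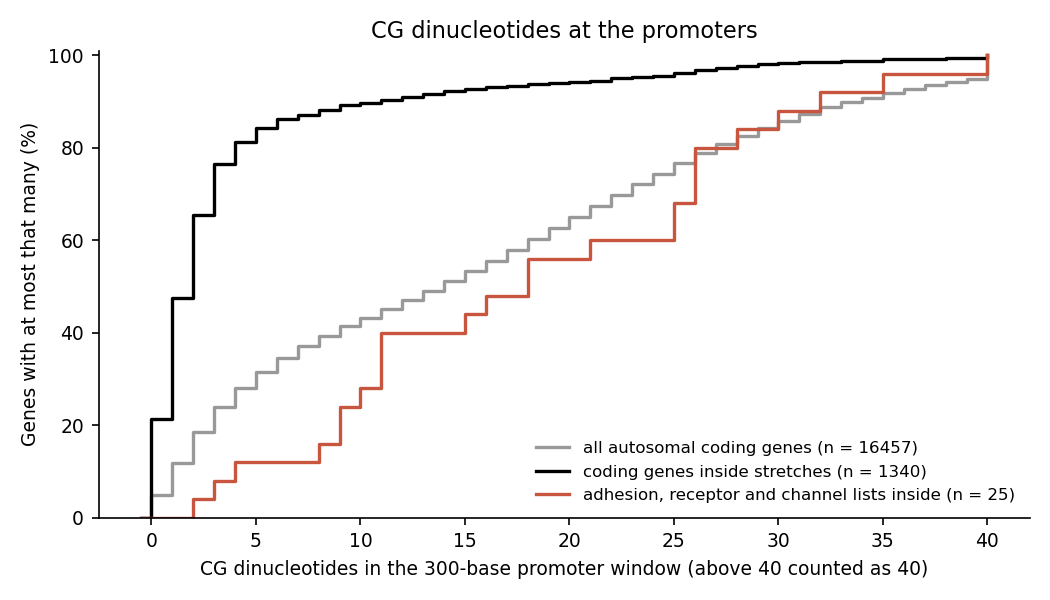
Cumulative percentage of genes by the number of CG dinucleotides in the 300-base promoter window, for all autosomal coding genes (grey, n = 16457), coding genes inside the stretches (black, n = 1340) and the adhesion, receptor and channel genes inside (red, n = 25). The black curve is at 84.4% by 5 CG, where the grey one is at 31.5% and the red one at 12%.

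Many genes inside had near copies elsewhere. A run of 50 identical bases was shared with a promoter of another gene by 36.3% of the promoters inside, 7.65% of all and 5.11% of those not inside. Among chemosensory receptors it was 31.1% inside and 19% not inside. Reads from such copies may not have a single place in the genome, and the part of this in the missing peaks was not tested. Without these genes and those not matched, 853 coding genes were inside. Olfactory receptors then stood at 41.4%, close to the 41.2% with all genes. Vomeronasal type 1 receptors stood at 28.3%, defensins at 25% and the prolactin family at 93.8%, against 5.61% of all genes counted in the same way.

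Genes with a CG-rich promoter (at least 15) that shared no such run were open as a rule. There were 7951, of which 76 lay inside a stretch (0.956%), against 8.14% of all genes with a counted promoter. An end peak in 1 or both libraries was listed for 87.7% of the 7951, against 62.2% of all genes with a counted promoter. Among the 7875 not inside it was 88.5%, a share that leaving out the stretches raises. The 76 lay in 59 stretches, and 3 stretches held at least 3 of them. These stretches were picked for description after their values were seen. The Cdkn2a stretch was 1 of the 3.

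The second was a 534.4 kb stretch on chromosome 11, chr11:50292834-50827262, with 5 coding genes. They are Canx, Cby3, Hnrnph1 (an RNA-binding splicing factor), Rufy1 (an endosomal protein) and Adamts2 (a procollagen protease). Canx and Hnrnph1 are used by most cells. The left border had 89 and 78 fragments and the right one 9 in shHMGB1 alone, and the 500 kb to the left and right held 40 and 11 merged intervals. The left flank was thus denser in intervals than the 53.0 per Mb of the autosomes as a whole.

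The last of the 3 was chr4:48898992-49688757, 789.8 kb, with 10 coding genes. Among them were Mrpl50 (mitochondrial ribosome), Zfp189, Rnf20 (a histone ubiquitin ligase) and Baat, a liver enzyme of bile acid conjugation. Its borders were peaks of shCTRL alone with 12 and 16 fragments, and the flanks held 32 and 3 intervals. A further stretch on chromosome 11, chr11:54523296-55033082 (509.8 kb), held Cdc42se2, Lyrm7, Hint1, Gpx3 and Tnip1, of which Cdc42se2 and Lyrm7 met the CG rule. Its borders had 35 and 29 fragments on the left and 12 in shCTRL alone on the right, between flanks of 41 and 45 intervals.

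Few nucleosome-free regions, which the authors listed separately from the same reads, lay inside, and the rule largely fixed this. Of 15860 autosomal regions of shCTRL, 5 were wholly inside a stretch (0.0315%, exact 95% interval 0.0102 to 0.0736). Of 14246 of shHMGB1 none was, which allows a share of up to 0.0259% by the exact interval and 0.0211% by the limit of 3 counts, for counting error only. Regions that touched a stretch numbered 19 and 7. The 2 kinds of list are not independent. A peak of their own library overlapped 15330 and 14094 of the regions, which therefore could not lie wholly inside a stretch. At most the remaining 530 and 152 could, so the shares and intervals over all regions describe the rule.

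The 5 regions inside had few insertions. Their deposited insertion density ran from 0.138 to 0.289, against a median of 0.827 over all autosomal regions of shCTRL. The one on chromosome 6 in the stretch of Foxp2 and Ppp1r3a was 143 bp from the right border. The others were 58.7 to 330 kb from the nearest border, in the stretch of Cdh7 and Cdh19 on chromosome 1, that of Tram1l1 on chromosome 3, and stretches without a whole coding gene on chromosomes 6 and 18.

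The borders were ordinary peaks for the most part. The 1114 sides of the stretches were 1015 distinct merged intervals, since 99 intervals had a stretch on each side. A peak of each library was present in 415 (40.9%, 37.8 to 44.0), against 45.4% of all autosomal merged intervals. Peaks of shCTRL alone made up 29.5% of borders and 32.6% of all intervals, and peaks of shHMGB1 alone 29.7% and 22.1%. Of the 99 isolated intervals, 31.3% had a peak of each library (22.4 to 41.4). The interval listed in shHMGB1 alone was thus the kind whose share at borders stood furthest above its share over all intervals. The lowest listed pileup was 7 in shHMGB1 and 10 in shCTRL, which is 4.15 and 3.58 times the expected pileup, and the part of these limits in the difference was not tested.

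**Figure D5:**
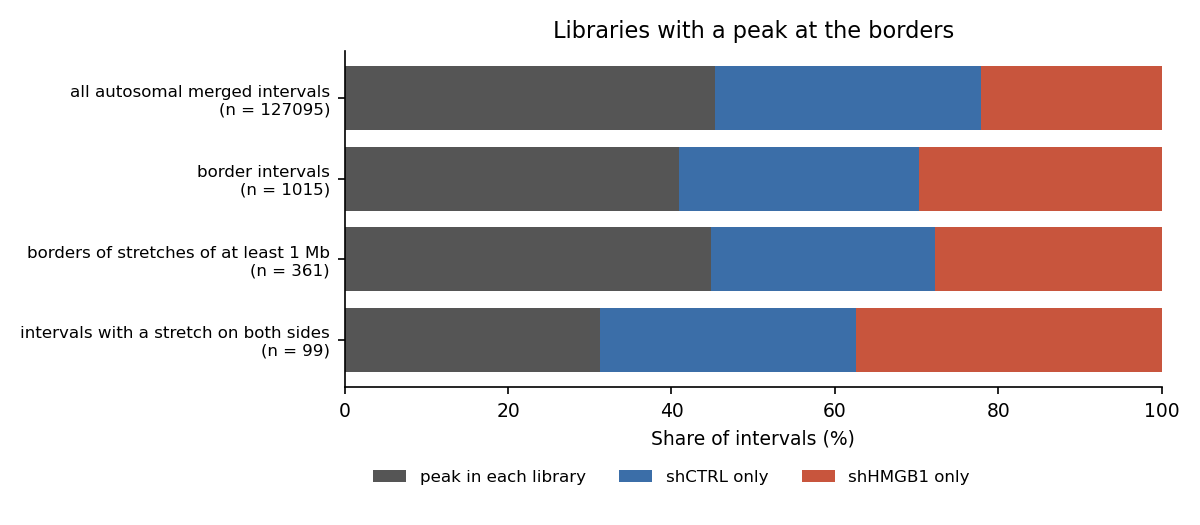
Share of merged intervals, in percent, with a peak in each library (grey), in shCTRL only (blue) or in shHMGB1 only (red), for all autosomal intervals, all borders, the borders of stretches of at least 1 Mb, and intervals with a stretch on both sides. The red part is 22.1% over all intervals, 29.7% at borders and 37.4% between neighbouring stretches.

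Border heights were close to those of other peaks. The median pileup was 16 fragments in shCTRL and 12 in shHMGB1, against 15 and 13 over all intervals. Expressed over the expected pileup that the caller used, which was 2.79 and 1.68, these border medians were 5.73 and 7.12. The median border was 149 bp wide against 178 bp, and 12.5% lay at a coding gene end against 16.3% of all intervals.

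Some borders were very high. The highest was chr2:98662150-98663066 with 1857 fragments in shCTRL and 2020 in shHMGB1, followed by an interval on chromosome 18 (999 and 732) and chr2:22587321-22590569 (375 and 719). The first was 665 and 1199 times the expected pileup. Peaks were used as listed, without a further filter for regions of excess signal. None of these 3 lay at a coding gene end. Of the 10 highest, 5 were at a gene end, namely those of Zfp788 (237 and 278), Cldnd1 (182 and 206), Dsel (222 and 160), Zfp317 (180 and 162) and Lcorl (180 and 149). The interval of Zfp317, a zinc finger gene, stood between 2 stretches of olfactory receptors on chromosome 9 that held 19 and 10 of them. That of Cldnd1 was the left border of a stretch with 25 olfactory receptors on chromosome 16. Open ends of both genes thus abutted receptor clusters without a peak, in both libraries.

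Isolated intervals joined 178 stretches into 79 runs of at least 2. The longest run had 5 stretches over 8.77 Mb on chromosome 5, chr5:53999540-62766187, with 647 bp of peaks in 4 intervals and the coding genes Pcdh7 and G6pd2. On chromosome 14, chr14:106164436-114791597 joined 3 stretches over 8.63 Mb, with 146 bp in 2 intervals, and held Slitrk1, Slitrk6 and Slitrk5. Of those 2 intervals, 1 was listed in shCTRL alone and the other in shHMGB1 alone.

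Each library alone gave more and longer stretches. With the peaks of shCTRL alone there were 599 stretches of 666.3 Mb in all, the longest 6.17 Mb. With those of shHMGB1 alone there were 620 of 688.1 Mb, the longest 4.54 Mb. The lists differ in size, with 102858 autosomal peaks in shCTRL and 90479 in shHMGB1. With shCTRL at as many peaks as shHMGB1, there were 620 stretches of 705.5 Mb. The lower number and total of shCTRL were thus not seen at equal peak number. Of the 557 shared stretches, 127 had identical borders in shCTRL alone and 170 in shHMGB1 alone. Inside the stretches of shCTRL lay 578 peaks of shHMGB1, with a median of 9 fragments and a highest of 41, and 83.2% had a −log10 q under 5. Inside those of shHMGB1 lay 733 peaks of shCTRL, with a median of 12 and a highest of 35, and 88.4% were under 5. No peak of the other library lay inside 277 of the 599 and 279 of the 620. Over all autosomal peaks the median was 15 fragments in shCTRL and 13 in shHMGB1, and the lowest listed were 10 and 7. The share of all peaks under 5 was not counted, and a pileup of 15 in shCTRL had a −log10 q of 4.98. The longest stretch of shCTRL, on chromosome 5 around Pcdh7, was cut by a single shHMGB1 peak of 12 fragments.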

How the data were processed

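ATAC-seq of 1 library per group was analysed. Groups came from the silencing label. The submitters' processing notes name Trimmomatic 0.32 (a read trimmer), BWA 0.7.5-r404 (an aligner), SAMtools, bedtools, MACS2 (a peak caller) and the build mm10 (GRCm38). Settings, and how nucleosome-free regions were called, are not given in the sources used here. Both of the authors' peak lists (1 per library) give a deposited score (the whole part of 10 times the −log10 q), a deposited fold ratio over the expected pileup, and deposited −log10 p and −log10 q values. The deposited columns of the nucleosome-free regions were read as fractions of nucleosome occupancy and as signal (insertion and bias density) from their ranges, since no header names them.

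All 180632 and 156812 summits gave whole pileups within 0.001 as fold × (expected + 1) − 1. The highest summit of each interval was kept. The lists held 102858 and 90479 autosomal peaks in shCTRL and shHMGB1, and their consecutive peak numbers had 0 breaks. Total reads are not in the lists, so depth is known only through the expected pileup. Peaks were merged where they overlapped or abutted, which gave 127095 intervals. Coding genes, placed by coordinates from RefSeq GRCm38.p6, have starts and ends without exons. An end peak lies within 1 kb of either end. Promoters of 300 bases (250 before, 50 after the start) matched 1340 of 1561 coding genes inside stretches. A gene with several promoters was given the outermost, so a main promoter can lie elsewhere. Intervals are exact Clopper-Pearson at 95% and cover only counting error; without molecular identifiers, fragments need not be independent molecules. No test was made with 1 library per group.

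The stretches, the 35 gene lists and the alternatives were chosen with earlier results of these data known. Named genes are those of the 12 longest stretches, of the stretch with most members of each list (up to 6), the 10 longest genes that hold a whole stretch, list members inside, genes at the 10 highest borders, and the 3 stretches or gaps on each side of the length limit. Genes named Gm or ending in Rik were left out unless alone. Others were named after their values were seen, and a few genes that the rule selects are not reported here. Leaving chromosome 18 out of promoter counts was decided after the data were seen. Python 3.11.15, numpy 2.4.6, pandas 2.3.3, scipy 1.17.1 and matplotlib 3.10.9 were used, and the placing of stretches and genes was tested on simulated data.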

Additional observations from a re-analysis of the deposited data

How the results depend on the processing

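No paired analysis was possible because each group was 1 library. The stretches depend on how strong a peak must be to count. With peaks of −log10 q of at least 5, 2487 coding genes and 65.9% of olfactory receptors were inside, and 52 and 15 nucleosome-free regions (shCTRL and shHMGB1, from 5 and 0). At 10, the stretches summed to 1002 Mb, with 3123 genes, 71.5% of olfactory receptors and 185 and 79 regions. With shCTRL alone, olfactory receptors were at 56.3% and regions at 9 and 6. With shHMGB1 alone these were 52.1%, 24 and 3, and with shCTRL at as many peaks as shHMGB1 56.6%, 13 and 8. With only intervals that hold a peak of each library, 2606 genes, 68.5% of olfactory receptors and 57 and 18 regions were inside. A minimum of 400 kb gave 51.5% of olfactory receptors. At 750 kb there were 310 stretches with 29.1%. At 1000 kb there were 190, with 322.3 Mb, 798 genes, 20.8% of olfactory receptors and a peak of each library at 44.9% of borders. Counting any overlap of at least 1 bp gave 19 and 7 regions. Without promoters that share 50 bases, and without genes not matched to the promoter table, 853 genes were inside; 487 of the genes left out shared such a run. With border pileup over background of at least 5 in 1 or both libraries, 59.3% of borders had a peak of each library. Without chemosensory receptors, 73.8% of promoters had few CG. The settings on shared bases and on border pileup were added after the data were seen.

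Of 30 lists, all 30 kept their side of the share of all coding genes under the peak alternatives. At 400 kb it was 29 (keratins moved to 26.4%), at 750 kb 26 and at 1000 kb 23. The lists that went from above to below were prolactin, serpins, carboxylesterases and cytochrome P450 at both lengths, and defensins, Skint genes and the taste receptor list at 1000 kb. The causes were not tested.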

Other observations

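Other annotated genes filled the stretches unevenly. Of 9319 autosomal pseudogenes 2113 lay inside (22.7%), against 7.81% of coding genes and 8.25% of 12408 long noncoding RNA genes. Of 394 variable segments of antigen receptors 158 lay inside, which were 72 of 102 of the immunoglobulin kappa locus and 86 of 114 of the T cell receptor alpha locus. The kappa segments lay in 2 stretches and the alpha segments in 1. None of the 120 heavy chain, 22 T cell receptor beta, 21 unplaced by symbol, 7 gamma, 5 delta or 3 lambda segments lay inside.

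Tandem families outside the lists were found by their shared symbol stems after the values were seen, and stems with high shares were picked for naming. Over all autosomal coding genes, 7.81% lay inside. Of 45 Pramel genes, of a germline-expressed family, 32 lay inside, and of 40 Scgb genes, small secreted proteins of glands, 23. All 5 casein genes (Csn1s1, Csn2, Csn1s2a, Csn1s2b and Csn3), which encode milk proteins, lay in 1 stretch. So did all 7 Mrgprb genes, receptors of sensory neurons and mast cells, 6 of the 7 Reg genes of gut and pancreas, and 5 of the 6 Dsg genes, desmosomal cadherins of epithelia. Some other stems were lower, with 10 of 361 Slc genes inside (2.77%), 7 of 167 Fam genes (4.19%) and 5 of 34 Adam genes (14.7%).

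Of 1136 autosomal microRNA genes 58 lay inside (5.11%), and 51 of them matched the RefSeq microRNA table (GRCm38.p6). All 13 Mir344 genes stood in chr7:60492687-62725973, a stretch of 2.23 Mb that also held the imprinted genes Ndn, Magel2, Mkrn3 and Peg12. Its borders were a peak of 28 and 22 fragments on the left and one of 10 in shCTRL alone on the right. The mature sequences below share a seed (bases 2 to 8, in capitals), which 7 of the family's 5′ arms carry. The 5p arm of miR-31, from the Cdkn2a stretch, and let-7c-5p, from a 544.4 kb stretch on chromosome 16 that also held Mir99a, follow for comparison, and their seeds differ from it.
mmu-miR-344d-1-5p: aGUCAGGCugcuggcuauacacca
mmu-miR-344b-5p: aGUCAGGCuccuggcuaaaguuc
mmu-miR-344c-5p: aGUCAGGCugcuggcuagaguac
mmu-miR-344-5p: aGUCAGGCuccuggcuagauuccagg
mmu-miR-344g-5p: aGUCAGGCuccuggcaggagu
mmu-miR-31-5p: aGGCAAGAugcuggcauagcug
mmu-let-7c-5p: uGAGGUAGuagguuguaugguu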
